A study of Mus musculus with 2 samples.

Results

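Natural killer (NK) cells in which no transcript of the Ly49 receptor genes was counted were described here in single-cell libraries of NK cells sorted from mouse brain. They numbered 129 of the 3404 barcodes in the series, 83 in the wildtype library and 46 in the 3xTg-AD library. A barcode was taken into the NK gate if it held at least 2500 unique molecular identifiers (UMIs, each counted as 1 captured transcript), at least 300 genes and at most 10% mitochondrial UMIs. It also had to hold a UMI of Ncr1 (NKp46) or Klrb1c (NK1.1), no UMI of the T cell genes Cd3d, Cd3e and Cd3g or of the microglial genes C1qa, C1qb and C1qc, and at most 2 UMIs summed over Itga1, Cxcr6, Inpp4b, Gzmc and Tnfsf10, genes of type 1 innate lymphoid cells. The gate held 932 wildtype and 904 3xTg-AD barcodes. Those with 0 UMIs over the 11 Klra genes, which encode the Ly49 receptors, are called Ly49-undetected. They were thus selected on their measured Ly49 counts, and they were compared with 754 and 770 barcodes of the same gate with 3 or more such UMIs, called Ly49-high.

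The Ly49 receptors are lectin-like proteins on the surface of mouse NK cells that mostly read classical MHC class I molecules on other cells, and most of them inhibit the NK cell while some activate it. Each NK cell expresses only some of these genes, in combinations that vary from cell to cell, and expression begins during NK cell development, after NK1.1 has appeared. The neighbouring NKG2 and CD94 genes encode a separate set of lectin-like receptors that read a nonclassical MHC class I molecule, and these can be expressed by NK cells that lack Ly49 receptors. Immature NK cells and type 1 innate lymphoid cells share several genes, among them Il7r, so a cell cannot be assigned to either from one of these genes alone.

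The wildtype library came from untreated 8-month-old C57BL/6 females and the 3xTg-AD library (3XTg-AD in the labels) from untreated females of the same age. The 3xTg-AD line is a model of Alzheimer's disease known to carry, among other alleles, human APP and MAPT transgenes under a Thy1 expression cassette. There was 1 library per genotype. Neither the number of mice per library nor the background strain of the 3xTg-AD animals is stated in the labels. Library, genotype, background and preparation therefore cannot be told apart, and no test was made between genotypes. All intervals below are 95% intervals that cover counting error only.

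The libraries held 5559995 and 5468455 UMIs, with medians of 2930 and 2846 per barcode. 1 barcode sequence occurred in both libraries and none of the gated ones did. Scrublet called 1 Ly49-undetected barcode in each library as a doublet, against 5 and 12 Ly49-high barcodes. Among the wildtype Ly49-undetected barcodes, 1 drew 56.9% of its UMIs from erythroid genes, while the next highest drew 0.0334%. Among the Ly49-high barcodes, 1 wildtype barcode was at 51.7% erythroid UMIs and 1 3xTg-AD barcode at 38.7% neutrophil UMIs. The rule keeps these 3 barcodes, so call counts are given with and without them.

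Since the cells were chosen by their Ly49 counts, these counts are a description. In the wildtype library, 83 gated barcodes (8.91%, 7.16 to 10.9%) had no Ly49 UMI, and in the 3xTg-AD library 46 (5.09%, 3.75 to 6.73%). Just outside the rule lay 48 and 36 barcodes with 1 Ly49 UMI and 47 and 52 with 2. Gated wildtype barcodes held a median of 7 Ly49 UMIs and at most 38, and gated 3xTg-AD barcodes a median of 8 and at most 46. Thinned to 2500 UMIs each, 101 wildtype barcodes (10.8%) and 60 3xTg-AD barcodes (6.64%) had none, and thinned to 1250 UMIs 177 (19.0%) and 127 (14%). The share was thus lower in the 3xTg-AD library at all 3 depths, and in both libraries it grew as depth was reduced.

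**Figure D1:**
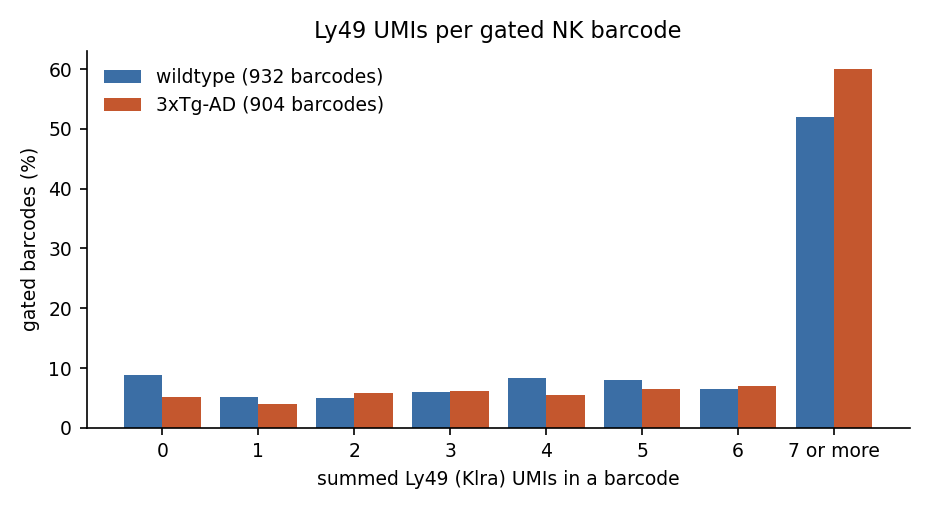
Share of gated NK barcodes (y axis, percent) by the sum of their Ly49 (Klra) UMIs (x axis) in the wildtype (932 barcodes) and 3xTg-AD (904 barcodes) libraries. Barcodes at 0 made up 8.91% and 5.09%, and most barcodes in both libraries held 7 or more.

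Of the Ly49-high barcodes, 2 of 754 in wildtype and 2 of 770 in 3xTg-AD had none left at 2500 UMIs, and 51 (6.76%) and 46 (5.97%) had none left at 1250 UMIs. The limit of 3 UMIs sets these counts in large part, and they say nothing of cells with low Ly49 expression. Ly49-undetected and Ly49-high barcodes had similar depth, with medians of 3401 and 3448.5 UMIs in wildtype and 3095 and 3281.5 in 3xTg-AD. At 2500 UMIs the median number of genes was 1197 against 1203.5 in wildtype and 1231 in both classes of 3xTg-AD. Median mitochondrial shares were 1.54% against 1.34% in wildtype and 1.37% against 1.16% in 3xTg-AD, and median ribosomal protein shares 20.5% against 18.2% and 18.5% against 16.5%. Both shares were a little higher in Ly49-undetected barcodes of both libraries, and their part in the results below was not tested.

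Ly49 UMIs in barcodes of other cells would bear on the opposite error if those barcodes held no NK cell. Barcodes with 3 or more UMIs of the microglial C1q genes had medians of 3206 and 3583 UMIs. Of these, 3 of 8 in wildtype (37.5%, 8.52 to 75.5%) and 14 of 30 in 3xTg-AD (46.7%, 28.3 to 65.7%) held a Ly49 UMI. They were not required to lack Ncr1 or Klrb1c UMIs, so doublets with NK cells may be among them. In the gate the share was 91.1% and 94.9%, at medians of 3402.5 and 3247 UMIs. A barcode with 1 or 2 Ly49 UMIs is therefore not counted here as expressing a Ly49 gene, and a barcode with 0 UMIs is called undetected and not negative.

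The 11 Klra genes span 129831154 to 131247362 on chromosome 6 (mm10), 1416 kb. They are close copies of one another, so the split of counts between them is uncertain, while their sum is less so. In gated wildtype barcodes Klra4, Klra8, Klra7, Klra9, Klra1 and Klra3 gave 23.5%, 19.2%, 18.0%, 15.3%, 13.1% and 7.87% of the Ly49 UMIs, and in 3xTg-AD 24.2%, 29.6%, 14.2%, 14.7%, 4.0% and 11.4%. Counts are against the mm10 sequence, so how reads of other Ly49 alleles would be counted was not tested.

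Ncr1 and Klrb1c, the gate's own genes, were at similar levels in both classes and are a description. Ncr1 stood at 1455 CPM (the gene's UMIs summed over a class and scaled by all UMIs of that class) in wildtype Ly49-undetected cells and 1726 in Ly49-high cells, and at 2174 and 2272 in 3xTg-AD. Every one of the 12 NK markers was detected in each class, but their sum was lower in Ly49-undetected cells. In wildtype it was 25234 CPM (24555 to 25927) against 38854 (38573 to 39136) in Ly49-high cells. In 3xTg-AD it was 27226 (26281 to 28197) against 38302 (38026 to 38580). That list includes Gzma and Prf1, which are described below. Of 12 T cell markers, Trac and Bcl11b had UMIs, and Cd3d, Cd3e, Cd3g, Cd5, Cd6, Cd8a, Cd8b1, Cd4 and Themis were at 0 in all 4 sums, the Cd3 genes because the gate requires it. The list for group 2 and 3 innate lymphoid cells, which includes Il22, Il5 and Il13, had 1 UMI in the Ly49-undetected cells of wildtype and 0 in those of 3xTg-AD.

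Genes of type 1 innate lymphoid cells went the other way. That list, with the 5 genes the gate limits and with Tmem176a, Tmem176b and Il7r among its 10 members, summed to 800 CPM (683 to 931) in wildtype Ly49-undetected cells and 57.8 (47.5 to 69.8) in Ly49-high cells. In 3xTg-AD it summed to 643 CPM (505 to 808) and 38.4 (30.2 to 48.3). A UMI of it was present in 51.8% and 54.3% of Ly49-undetected cells and in 9.95% and 8.18% of Ly49-high cells. Any UMI of the 5 limited genes was present in 24.1% and 26.1% of Ly49-undetected cells and in 8.49% and 7.01% of Ly49-high cells, at most 2 by the gate. The gate fixed Ncr1 and Klrb1c, so they do not bear on the label of these cells as NK cells. Of the Ly49-undetected cells, 43.4% and 39.1% held under 10 Gzma UMIs, against 4.51% and 3.12% of Ly49-high cells. Whether type 1 innate lymphoid cells with few UMIs of the limited genes are among them was not tested.

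To compare the classes, every barcode was thinned to 2500 UMIs and counts were summed over each class in each library. In both libraries, Ly49-undetected cells held more transcripts of Il7r (the interleukin-7 receptor), Tmem176a and Tmem176b (cation channel proteins of intracellular membranes), Ltb (lymphotoxin beta), Emb (embigin, an adhesion protein) and Xcl1 (a chemokine for cross-presenting dendritic cells). They held more Klrc1, which encodes the inhibitory receptor NKG2A, and less Klrc2, which encodes the activating NKG2C. They held about 2-fold less of the cytotoxic genes Gzma (1.89-fold in wildtype and 1.75-fold in 3xTg-AD) and Prf1 (2.11-fold and 2.06-fold). Eomes, a transcription factor of the NK lineage, was 2.74-fold and 2.84-fold lower, while Tbx21, which encodes T-bet, was at 0.952 and 1.04 times its level in Ly49-high cells.

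Over 7576 genes, edgeR's quasi-likelihood test with the library as a term called 137 at an adjusted p under 0.05, 1.81% of those tested. Of these, 65 were higher in Ly49-undetected cells (0.858%) and 72 lower (0.95%), and 133 differed in the same direction in both libraries. The median log2 fold change of all genes tested was -0.09. The fit had 4 sums and 1 residual degree of freedom, and the 2 libraries are its only replicates, so its p-values say little about other animals. The fit pooled the quasi-likelihood spread fully over genes (its prior degrees of freedom were infinite), so p-values of genes whose UMIs lie in few cells are too small. The count depended on the method. DESeq2 called 14 higher and 4 lower genes, 0.242% of 7430, all 18 of them among edgeR's calls. With DESeq2's size factors in place of edgeR's scaling, edgeR called 51 higher and 18 lower, so the balance of higher and lower calls rests on the scaling. Without the 3 barcodes rich in erythroid or neutrophil UMIs, 46 higher and 58 lower genes were called.

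A set of 14 genes was called by edgeR, by DESeq2, after a second random thinning and in a fit that counts each cell at most once per gene. The 12 higher ones were Tmem176a, Ckb, Il7r, Tmem176b, Socs2, St6galnac3, Emb, Ltb, S100a4, Xcl1, Thy1 and Klrc1, and the 2 lower ones were Prf1 and Gzmb. All 14 kept their direction in each of the 17 alternative fits that tested them. The fits that chose these genes are among the 17, so agreement there was fixed by the choice. The other fits reuse many of the same cells. All 14 were still called without the erythroid-rich and neutrophil-rich barcodes, and 13 were called among cells with no UMI of the 5 limited innate lymphoid genes. Only 8 were called among barcodes without any marker UMI of other cell types. That filter drops 57.8% and 58.7% of the Ly49-undetected barcodes and 39.7% and 47.3% of the Ly49-high barcodes. The part of this class difference in the lost calls was not tested.

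**Figure D2:**
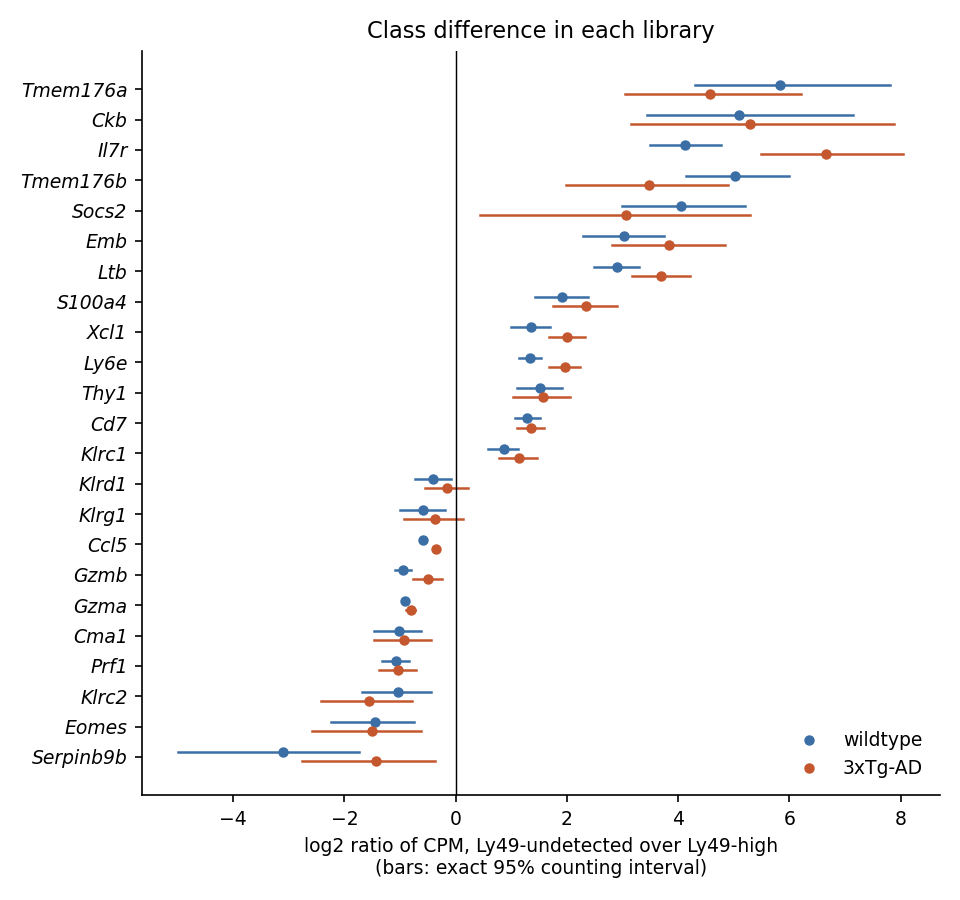
Log2 ratio of CPM in Ly49-undetected over Ly49-high cells (x axis) for named genes (rows) in the wildtype and 3xTg-AD libraries, with exact 95% counting intervals as bars. Il7r, Tmem176a and Ckb lie far to the right of 0 in both libraries, and Prf1, Eomes and Klrc2 lie to the left in both.

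Of the 5 NKG2 and CD94 genes, 1 rose (Klrc1) and 1 fell (Klrc2), and the median log2 fold change was -0.37 against -0.09 over all genes tested. Klrc1 and Klrc2 are adjacent genes of the minus strand of chromosome 6, at 129666015 to 129678973 and 129647496 to 129660689 (mm10). Both their products pair with CD94 and read the same ligand. In Ly49-undetected cells Klrc1 had 138 UMIs (665 CPM) for wildtype and 81 UMIs (704 CPM) for 3xTg-AD, and it had 691 UMIs (367 CPM) and 619 UMIs (322 CPM) in Ly49-high cells. The ratio was 1.81 (1.5 to 2.18) in wildtype and 2.19 (1.72 to 2.76) in 3xTg-AD, with a log2 fold change of 0.90 ± 0.12 (SE) and an adjusted p of 1.5e-10 by edgeR's quasi-likelihood test. Klrc1 was called in 15 of 17 alternatives, over which its adjusted p ran from 1.2e-16 to 0.68. It was not called in barcodes of 4000 or more UMIs or without barcodes holding a marker UMI of other cell types.

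Klrc2 went the other way. It had 24 UMIs (116 CPM) and 14 UMIs (122 CPM) in Ly49-undetected cells of wildtype and 3xTg-AD, and 447 UMIs (237 CPM) and 687 UMIs (357 CPM) in Ly49-high cells. The log2 fold change was -1.33 ± 0.21 (SE), with an adjusted p of 4e-08 by edgeR's quasi-likelihood test. DESeq2 did not call it, and over the 17 alternatives its adjusted p ran from 9.3e-11 to 0.39. Klrc1, Klrc2 and Klrc3 are similar in sequence, so the split of counts between them is uncertain. Their partner Klrd1 (CD94) and the activating receptor Klrk1 (NKG2D) did not pass, with log2 fold changes of -0.37 ± 0.12 (adjusted p = 0.11) and -0.04 ± 0.10 (adjusted p = 0.96) by the same test.

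The 2 genes also differed cell by cell. Klrc1 without Klrc2 was found in 59.0% (47.7 to 69.7%) of Ly49-undetected cells in wildtype, and in 50% (34.9 to 65.1%) of them in 3xTg-AD. In Ly49-high cells it was found in 26.1% (23 to 29.4%) and 24.0% (21.0 to 27.2%). Klrc2 without Klrc1 was found in 8.43% and 8.70% of Ly49-undetected cells and in 26.4% and 40.1% of Ly49-high cells. The share with neither was 19.3% and 26.1% in Ly49-undetected cells against 34.4% and 23.9%, so its order differed between the libraries. The promoter windows of this neighbouring pair are shown because the genes moved in opposite directions. Each is the 250 bases before the start annotated by RefSeq on GRCm38.p6, minus strand, read 5′ to 3′ in the direction of the gene, and capitals mark the 6 letters TGTGGT or their reverse complement ACCACA, the core bound by RUNX factors.
Klrc1, chr6:129678974-129679223: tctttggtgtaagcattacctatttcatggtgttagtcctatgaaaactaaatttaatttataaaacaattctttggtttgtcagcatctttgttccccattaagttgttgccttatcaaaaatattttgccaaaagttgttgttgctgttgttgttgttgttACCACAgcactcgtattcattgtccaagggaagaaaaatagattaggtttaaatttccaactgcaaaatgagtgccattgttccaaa
Klrc2, chr6:129660597-129660846: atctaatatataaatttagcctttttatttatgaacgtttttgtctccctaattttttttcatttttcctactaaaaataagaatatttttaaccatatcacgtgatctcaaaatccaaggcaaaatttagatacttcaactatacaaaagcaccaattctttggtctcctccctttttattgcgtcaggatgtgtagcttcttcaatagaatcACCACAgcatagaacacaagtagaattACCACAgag

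The list of other lectin-like receptors of chromosome 6 held 8 tested genes, with a median of -0.04. It gave 1 higher call, Klrb1b (an inhibitory NKR-P1 receptor), and 3 lower calls, Klre1, Klrg1 and Klri2. Klrg1 lies at 122270596 to 122282882, farther from Klrc1 and Klrc2 than the other called genes. Klrb1b was found in 36.1% and 30.4% of Ly49-undetected cells against 9.81% and 15.6% of Ly49-high cells, with a log2 fold change of 1.36 ± 0.26 (adjusted p = 2.4e-05, edgeR's quasi-likelihood test). Klrg1, an inhibitory receptor of mature NK cells, was found in 31.3% and 28.3% against 50.3% and 50.5%. Its log2 fold change was -0.58 ± 0.15 (adjusted p = 0.016), and it was called in 7 of 17 alternatives. DESeq2 called none of these 4 genes.

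Genes of immature NK cells formed the list with most higher calls. Of 18 tested, 12 rose (Cd226, Cd28, Cd7, Cxcr3, Emb, Ikzf2, Il7r, Kit, Ltb, Tcf7, Thy1 and Xcl1), none fell and 6 did not pass, with a median log2 fold change of 1.57 against -0.09 over all genes. DESeq2 called 6 of them higher. Over the 17 alternatives between 6 and 12 were called higher, at most 1 lower, and the median lay between 1.07 and 1.69. The genes Cd27 (log2 fold change 1.15, adjusted p = 0.16 by edgeR's quasi-likelihood test), a receptor of less mature NK cells, and Itgam (-1.15, adjusted p = 0.41), which encodes CD11b of mature ones, did not pass.

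Il7r lies at 9505788 to 9530176 on chromosome 15. Its Ly49-undetected sums held 65 UMIs for wildtype and 42 for 3xTg-AD, from 26 of 83 and 14 of 46 cells. It had 34 and 7 UMIs in the 754 and 770 Ly49-high cells. That is 313 and 365 CPM against 18.0 and 3.64 CPM, and a log2 fold change of 4.83 ± 0.28 (adjusted p = 3.4e-61, edgeR's quasi-likelihood test). Most Ly49-undetected cells nonetheless held no Il7r UMI at this depth.

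Ltb, which signals to stromal cells of lymphoid tissue, had 94 and 58 UMIs in Ly49-undetected cells against 115 and 75 in Ly49-high cells, or 453 and 504 CPM against 61.0 and 39.0. It was found in 44.6% and 45.7% of Ly49-undetected cells and in 8.75% and 5.45% of Ly49-high cells. The log2 fold change was 3.13 ± 0.18 (adjusted p = 3e-62, same test). Emb had 33 and 17 UMIs against 37 and 20, or 159 and 148 CPM against 19.6 and 10.4. Cd7, a surface protein of T and NK lineage cells, was more widespread, at 1027 and 1426 CPM against 421 and 560. Thy1 was at 333 and 348 CPM against 116 and 118, nearly the same in both libraries. Each of these genes was higher in Ly49-undetected cells within each library.

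Of 16 genes of tissue residency and type 1 innate lymphoid cells tested, 8 rose (Cd160, Ckb, Il7r, Ly6e, Rora, Tmem176a, Tmem176b and Xcl1), none fell and 8 did not pass, with a median of 1.2. DESeq2 called 6 of them higher. Il7r and Xcl1 stand on both lists, so the lists are not separate evidence. Tmem176a had 25 and 10 UMIs in Ly49-undetected cells, from 14 and 8 cells, against 4 and 7 UMIs in Ly49-high cells. Tmem176b had 50 and 8 UMIs, from 21 and 6 cells, against 14 and 12. The log2 fold changes were 5.07 ± 0.52 and 4.45 ± 0.39, with adjusted p-values of 1.8e-19 and 1.9e-27 by edgeR's quasi-likelihood test. The RefSeq starts of this pair lie 346 bases apart on opposite strands of chromosome 6, at 48841483 for Tmem176a and 48841137 for Tmem176b.

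Ckb, the brain-type creatine kinase, had 15 and 7 UMIs against 4 and 3. Socs2, a feedback inhibitor of cytokine signalling, had 22 and 3 against 12 and 6, and St6galnac3, a sialyltransferase, had 5 and 9 against 3 and 12. All 3 were thus rarely counted, and the highest single cell held 7 of the 22 wildtype Socs2 UMIs. Xcl1 was at 434 and 861 CPM against 170 and 215, though 1 cell in each library held 25 of 90 and 27 of 99 UMIs. Ly6e, a glycolipid-anchored surface protein, was at 1316 and 1122 CPM against 522 and 289. Its log2 fold change was 1.5 ± 0.10 (adjusted p = 4.5e-46, edgeR's quasi-likelihood test), and it was not called when each cell was counted at most once per gene.

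Among the remaining genes with large higher values, Prrt1, Ccdc92 and Tmem154 rested on 11, 9 and 9 UMIs over both Ly49-undetected sums, and Ifi27l2a on 27, of which 1 wildtype cell held 19. Cell type markers beside these results moved too. The dendritic cell list summed to 86.7 (51.4 to 137) and 52.2 (19.1 to 114) CPM in Ly49-undetected cells against 15.4 and 7.79 in Ly49-high cells. In all 4 sums its members Flt3, Xcr1, Clec9a and Cd209a were at 0, and the UMIs came from Cd74 and the MHC class II genes H2-Aa, H2-Ab1 and H2-Eb1 in wildtype, and from Cd74 and H2-Eb1 in 3xTg-AD Ly49-undetected cells. They were found in 13.3% and 4.35% of these cells. The part of these markers, and of the type 1 innate lymphoid list given above, in the higher calls was not tested.

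Of 20 cytotoxic effectors tested, 7 fell (Cst7, Ctsd, Gzma, Gzmb, Nkg7, Prf1 and Serpinb9b), 1 rose (Srgn, the granule proteoglycan serglycin) and 12 did not pass, with a median of -0.37 that ran from -0.66 to -0.24 over the 17 alternatives. DESeq2 called 3 of them lower, Gzma, Gzmb and Prf1. Gzma encodes granzyme A, a granule protease, and lies at 113093825 to 113100981 on chromosome 13. Its Ly49-undetected sums held 2463 UMIs for wildtype and 1388 for 3xTg-AD, and its Ly49-high sums 42184 and 40707. These are 11870 and 12070 CPM against 22379 and 21146 CPM. The log2 fold change was -0.94 ± 0.06 (adjusted p = 1.9e-53, edgeR's quasi-likelihood test).

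The lower Gzma sum came from a spread of cells and not from an even shift. Of the Ly49-undetected cells, 24 of 83 (28.9%) in wildtype and 8 of 46 (17.4%) in 3xTg-AD held no Gzma UMI at 2500 UMIs, against 11 of 754 (1.46%) and 12 of 770 (1.56%) Ly49-high cells. The median was 20 and 20.5 UMIs per cell against 53.5 and 52, while the highest Ly49-undetected cells held 99 and 96. When each cell was counted at most once per gene, Gzma kept its direction and was no longer called, and over the 17 alternatives its adjusted p ran from 3.4e-58 to 0.29.

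Prf1, which encodes perforin, had 144 and 78 UMIs (694 and 678 CPM) in Ly49-undetected cells against 2758 and 2687 UMIs (1463 and 1396 CPM) in Ly49-high cells. It was found in 55.4% and 58.7% against 84.5% and 84.8% of cells. Its log2 fold change was -1.14 ± 0.10 (adjusted p = 1.3e-28, edgeR's quasi-likelihood test) and it was called in all 17 alternatives. Gzmb, the protease granzyme B, was at 1851 and 1165 CPM against 3569 and 1650. Here the libraries differed as well, so the wildtype Ly49-undetected sum lay above the 3xTg-AD Ly49-high sum, although within each library Ly49-undetected cells were lower. The RefSeq promoter windows of Gzma and Prf1 are shown because these genes fell together, in the same format as above, Gzma on the minus and Prf1 on the plus strand.
Gzma, chr13:113100982-113101231: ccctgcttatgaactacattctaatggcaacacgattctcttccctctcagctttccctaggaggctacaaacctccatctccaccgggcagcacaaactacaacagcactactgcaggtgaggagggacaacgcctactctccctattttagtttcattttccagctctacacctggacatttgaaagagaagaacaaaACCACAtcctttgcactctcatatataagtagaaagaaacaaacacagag
Prf1, chr10:61297586-61297835: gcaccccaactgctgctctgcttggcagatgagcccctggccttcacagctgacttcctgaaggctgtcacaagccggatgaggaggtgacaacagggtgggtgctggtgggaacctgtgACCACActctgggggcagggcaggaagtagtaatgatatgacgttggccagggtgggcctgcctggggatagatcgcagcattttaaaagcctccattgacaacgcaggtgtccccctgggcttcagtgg

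The letters TGTGGT or ACCACA, searched on both strands with no other motif and chosen with results known, occur in 14% of all 32851 RefSeq windows of this length and in 10.8% of the 6026 windows matched to genes tested. They occur in 11 of the 54 matched genes called lower (20.4%) and in 6 of the 51 called higher (11.8%). Of genes described above whose windows are not printed, Gzmb holds the letters at 2 places, and Il7r and Tmem176a, which rose, at 0. A match describes these letters in this window and is not a binding site.

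Serpinb9b, a serpin of the family that inhibits granzyme B, had 4 and 7 UMIs in Ly49-undetected cells against 312 and 318 in Ly49-high cells, or 19.3 and 60.9 CPM against 166 and 165. Its log2 fold change was -2.34 ± 0.33 (adjusted p = 4.4e-10, edgeR's quasi-likelihood test), and DESeq2 did not call it, with an adjusted p of 0.17 that was the highest of the 17 alternatives (lowest 1.2e-17). D930028M14Rik had no UMI in either Ly49-undetected sum and 87 in the Ly49-high sums, which makes it at least 2.45-fold lower if 3 counts over both Ly49-undetected sums are taken as the floor. Spp1, Aldh2, Mllt3, Bloc1s2, 1810006J02Rik, Asna1 and Entpd1 were called lower on 1 to 6 UMIs over both Ly49-undetected sums, and Borcs7 on 18. None of these was called by DESeq2.

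Of 24 terminal maturation genes tested, 8 fell (Cma1, Emp3, Irf8, Klf2, Klrg1, Lgals1, S1pr5 and Vim), 1 rose (S100a4) and 15 did not pass, with a median of -0.32. The lower calls of this list rest on the method, with 3 under DESeq2's size factors, 1 without the library term, and 0 with DESeq2 or without barcodes holding other markers. Cma1, a chymase gene, was at 246 and 304 CPM against 501 and 581. S100a4, a calcium-binding protein, went against its list, with 54 and 35 UMIs against 130 and 116, or 260 and 304 CPM against 69.0 and 60.3. Of 28 transcription factors, 4 rose (Id2, Ikzf2, Rora and Tcf7) and 3 fell (Eomes, Irf8 and Klf2). Eomes had 17 and 10 UMIs against 423 and 476, or 81.9 and 87.0 CPM against 224 and 247, with a log2 fold change of -1.55 ± 0.24 (adjusted p = 2.5e-08, edgeR's quasi-likelihood test). Tcf7, a factor of early lymphoid cells, had 13 and 10 UMIs against 48 and 40, with a log2 fold change of 1.54 ± 0.41 (adjusted p = 0.016). DESeq2 called none of the transcription factors, and over the 17 alternatives the adjusted p of Eomes ran from 2.8e-12 to 0.35.

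Among 13 secreted cytokines and chemokines, Ltb and Xcl1 rose and Ccl4 and Ccl5 fell. Ccl5, abundant in these cells, was at 19335 and 25722 CPM against 29211 and 32909. Ifng (interferon gamma) had 13 and 5 UMIs in Ly49-undetected cells and did not pass (log2 fold change 0.36 ± 0.40, adjusted p = 0.88, edgeR's quasi-likelihood test). Of 22 activating receptors and adaptors, Cd160 and Cd226 rose and Fcer1g and Tyrobp, signalling adaptors, fell. Of 9 inhibitory and checkpoint receptors, Entpd1 and Klrg1 fell, and of 19 cytokine receptors, Il7r rose and Il10ra fell. Of 20 trafficking genes, Cxcr3 and Itgb7 rose and Itga4 and S1pr5 fell, and of 24 feedback and activation genes Nfkbia and Socs2 rose. Over all genes 1.81% were called. From activating receptors to feedback genes, list medians were 0.03, -0.50, 0.004, -0.02 and 0.14, against -0.09 over all genes. DESeq2 called no activating, inhibitory or trafficking gene. Over the 17 alternatives, activating calls ran from 0 to 2 in each direction. Inhibitory lower calls ran from 0 to 3, and trafficking calls from 0 to 2 higher and 0 to 3 lower.

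None of 29 genes of MHC class I and the interferon gamma response passed edgeR's test, nor any of 17 S phase or 13 glycolysis genes, with medians of -0.01, 0.36 and -0.14. With 1.81% of all genes called, lists of this size would hold few calls in any case, so these counts are near the background. Of 10 genes of G2 and M phase Tubb4b fell, of 23 immediate early and heat-shock genes Jund fell, and of 33 type I interferon genes Ifi27l2a and Ifit3 rose. These 2 rested on few cells, since 1 wildtype cell held 8 of 17 Ifit3 UMIs. At the depth of these sums a difference could be missed. In simulated data with 7414 genes, the fit called 25.5% of genes raised 2-fold and 8.16% of genes lowered 2-fold in Ly49-undetected cells, against 100% and 58.8% at 4-fold. Only better counted genes were changed there, so these shares do not carry over to rarely counted genes.

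Values were also read across the whole range of Ly49 counts, as a description of the barcodes at 0, 1 to 2, 3 to 5, 6 to 9 and 10 or more Ly49 UMIs. In wildtype the level of Il7r was 313, 109, 32.5, 18.9 and 6.87 CPM, and in 3xTg-AD 365, 31.8, 9.82, 4.60 and 0. Barcodes with 1 or 2 Ly49 UMIs, which lie just outside the rule, were thus between the classes for this gene. Gzma reached most of its plateau in that bin, with 11870, 19061, 22038, 22611 and 22421 CPM in wildtype. Klrc1 differed from both, at 665, 720, 532, 356 and 257 CPM in wildtype and 704, 814, 452, 352 and 237 in 3xTg-AD. It was as high at 1 to 2 Ly49 UMIs as at 0 and was lower at each higher count.

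**Figure D3:**
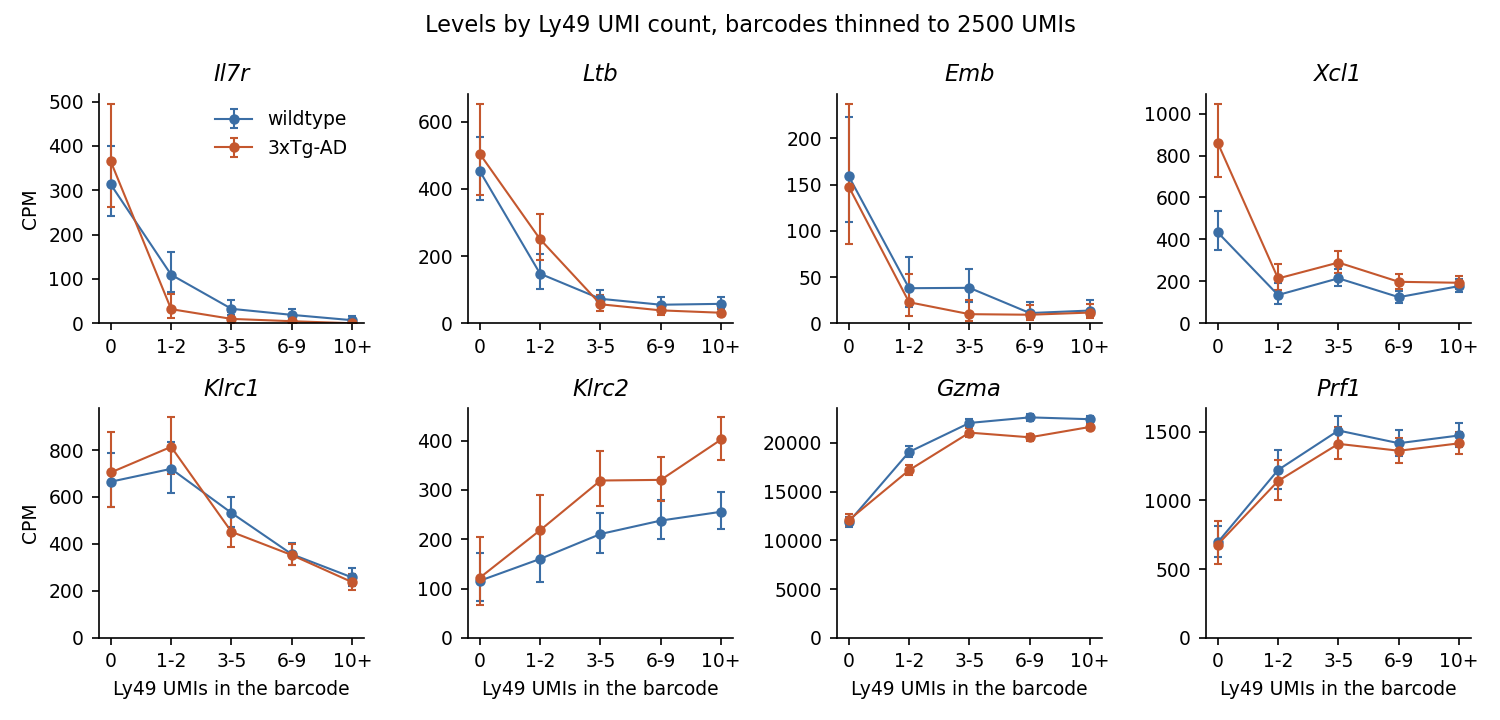
Level (y axis, CPM of summed thinned UMIs) of 8 genes by the number of Ly49 UMIs in the barcode (x axis) in the wildtype and 3xTg-AD libraries, with exact 95% counting intervals as bars. Il7r, Ltb, Emb and Xcl1 drop between 0 and 1 to 2 Ly49 UMIs, Klrc1 drops from 3 to 5 UMIs on, and Klrc2, Gzma and Prf1 are lowest at 0.

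Ly49-undetected cells were not uniform. A UMI of Il7r, Tmem176a or Tmem176b was found in 35 of 83 (42.2%) in wildtype and 20 of 46 (43.5%) in 3xTg-AD, against 30 of 754 (3.98%) and 23 of 770 (2.99%) Ly49-high cells. This split was chosen after its values were seen, so the following levels are a description. With such a UMI, wildtype and 3xTg-AD Ly49-undetected cells had 5474 and 4520 CPM of Gzma, a median of 0 and 1 UMIs per cell. Without one they had 16533 and 17877 CPM, a median of 43 and 47 UMIs, closer to the 22570 and 21124 CPM of Ly49-high cells without one. Low Gzma therefore lay mostly in the cells with these transcripts. Among Ly49-high cells the same split gave 17760 and 21878 CPM with such a UMI.

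Klrg1 was also lowest in cells with such a UMI, at 114 and 20 CPM with, 400 and 492 without, and 417 and 374 in Ly49-high cells without such a UMI. The 114 and 20 CPM rested on 10 UMIs and 1 UMI. Prf1 was at 377 and 260 CPM with and at 925 and 1000 without, against 1487 and 1410. Klrc1 was at 720 and 620 CPM with and 625 and 769 without, and both lay above the 355 and 321 CPM of Ly49-high cells without such a UMI. Ly49-high cells with one were at 653 (483 to 864) and 330 (199 to 516) CPM of Klrc1, so in wildtype they were near the Ly49-undetected level. Eomes was at 103 and 40.0 CPM with and 66.7 and 123 without, against 225 and 247. These were lower values on both sides of the split, but they rested on 9 and 2 UMIs with and 8 and 8 without. The interval of the 123 CPM ran from 53.1 to 243. Ltb was at 709 and 700 CPM with and 267 and 354 without, against 60.2 and 37.5, so it was also above the Ly49-high level in cells with no Il7r or Tmem176 UMI. A cell with no such UMI is undetected for these genes and not negative.

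**Figure D4:**
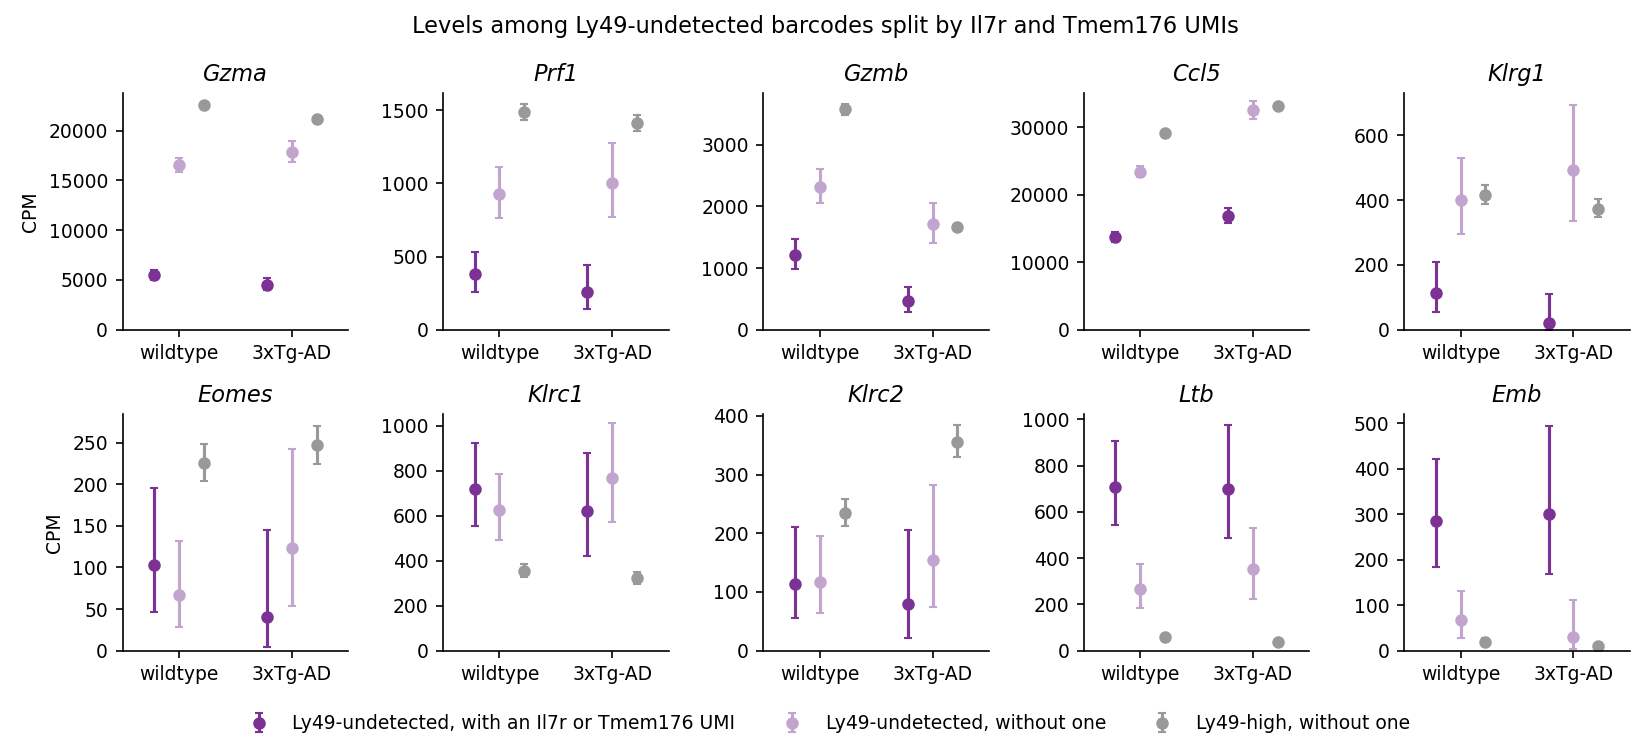
Level (y axis, CPM) of 10 genes in Ly49-undetected cells with and without a UMI of Il7r, Tmem176a or Tmem176b, and in Ly49-high cells without one, in each library, with exact 95% counting intervals as bars. Gzma, Prf1 and Klrg1 are lowest in cells with such a UMI, while Klrc1 lies above the Ly49-high level in both groups of Ly49-undetected cells.

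Between the libraries, Ly49-undetected cells could be compared only as values of 83 and 46 cells, that is 207500 and 115000 thinned UMIs. Of 924 genes with 50 or more UMIs over both, 8 (0.866%) were at least 2-fold higher in 3xTg-AD and 14 (1.52%) at least 2-fold lower, 2.38% in all. The median log2 ratio was 0.04. Klri2, a lectin-like receptor gene at 129729041 to 129740484 on chromosome 6, had 15 wildtype and 37 3xTg-AD UMIs, a ratio of 4.45 (2.38 to 8.73). In Ly49-high cells its ratio was 1.80 (1.59 to 2.04). Wls, which carries Wnt proteins to the cell surface, had 82 UMIs in 46 wildtype cells and 7 UMIs in 7 3xTg-AD cells, a ratio of 0.154 (0.0600 to 0.332), close to 0.130 (0.107 to 0.157) in Ly49-high cells.

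Several ratios lay on the same side of 1 in both classes. Gzmb was at a ratio of 0.630 (0.513 to 0.768) in Ly49-undetected and 0.462 (0.443 to 0.482) in Ly49-high cells. The heat-shock protein gene Hspa8 was at 1.79 and 2.16, Hsp90aa1 at 2.19 and 1.89, and the long noncoding RNA Malat1 at 1.55 and 1.48. The histone gene Hist1h2ap, which has near-identical copies, was at 3.32 (2.11 to 5.32) and 2.95 (2.53 to 3.46). In Ly49-undetected cells, however, 1 wildtype cell held 22 of its 31 UMIs and 1 3xTg-AD cell 41 of 57. Its ratio there thus rests largely on 1 cell in each library. For other genes both ratios are given with their intervals. Xcl1 was at 1.98 (1.48 to 2.67) and 1.27 (1.09 to 1.47), the autophagy receptor gene Sqstm1 at 2.23 (1.42 to 3.52) and 1.26 (1.11 to 1.42), and H2-T23, which encodes Qa-1, the ligand of NKG2A, at 0.407 (0.211 to 0.736) and 1.04 (0.908 to 1.19). Tmem176b was at 0.289 (0.118 to 0.614) and 0.839 (0.355 to 1.96). Whether these ratios differ between the classes was not tested.

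AY036118 was at 2.02 (1.66 to 2.48), but 1 3xTg-AD cell held 112 of its 212 UMIs. The haemoglobin genes Hbb-bs, Hba-a1, Hba-a2 and Hbb-bt were listed at 0 in 3xTg-AD, and the single erythroid-rich wildtype barcode held 905 of 907 Hbb-bs UMIs and nearly all of the others. Xcl1 should be read with the 2 cells named above, which held 25 and 27 of its UMIs.

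**Figure D5:**
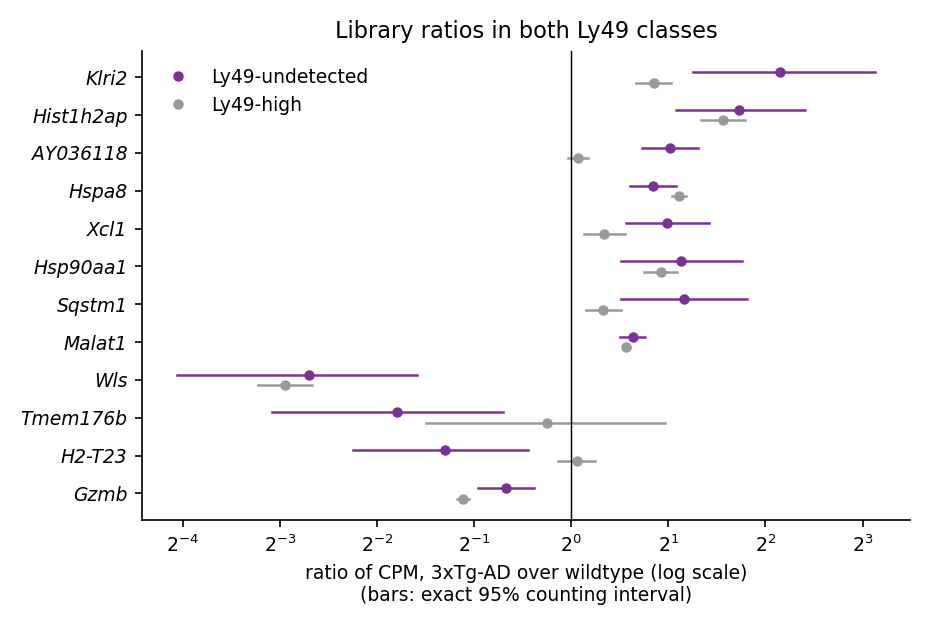
Ratio of CPM in 3xTg-AD over wildtype (x axis, log scale) for 12 named genes (rows) in Ly49-undetected and Ly49-high cells, with exact 95% counting intervals as bars; there was 1 library per genotype. Wls and Gzmb are lower and Hspa8, Hsp90aa1 and Malat1 higher in 3xTg-AD in both classes, and the intervals of Ly49-undetected cells are the wider ones.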

How the data were processed

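The authors deposited a matrix of UMI counts per gene and barcode for each library, with 31053 genes and no normalization. Libraries were made with 10x Genomics 5′ chemistry from cells sorted by flow cytometry and read as paired 75-base reads, per the labels' protocols. Cell Ranger 3.1.0, STAR and mm10 appear in the submitters' processing notes, while version 3.0.2 of the software stands in the matrices, per the file headers. Which gene annotation was counted against is not stated there.

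Barcodes were gated by the rule in the opening, on deposited counts. Gated barcodes were thinned without replacement to 2500 UMIs (seed 1) and summed by class and library. edgeR 4.0.16 (TMM scaling, filterByExpr, glmQLFit and glmQLFTest, library and class as terms) tested 7576 genes in R 4.3.3, with Benjamini-Hochberg adjustment over all. DESeq2 1.42.0 was an alternative, and an adjusted p that it left unset was kept unset. The Klra genes and the 13 other genes the gate reads were left out of the test and kept in the totals. Standard errors are the log2 fold change over the square root of the quasi-likelihood F. CPM is scaled to the thinned UMIs of a class, ratios have exact conditional binomial intervals, levels exact Poisson intervals and shares exact Clopper-Pearson intervals. The step was tested on simulated data with 200 of 7414 genes changed, where none of 7214 unchanged genes was called. The changed genes were drawn from those with at least 200 UMIs over all sums. Noise was set on the sums, at a dispersion of 0.02, and not cell by cell. The simulation therefore cannot show false calls of genes whose UMIs lie in few cells. Doublets were called by Scrublet (scanpy 1.11.5, Python 3.11.15) in each library and kept in the main result.

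Cells are not replicates, and where 1 library stands for a genotype no test was made. The genes named are the 12 higher and 12 lower genes with the largest changes among calls of the same direction in both libraries, all NKG2, CD94 and other lectin receptors, up to 4 members of each other list, 9 fixed genes and DESeq2's calls, the last added after seeing the data. Other members of lists are named only as called. A gene that the rule takes is not reported here. For the genotypes the rule takes the 8 higher and 8 lower genes whose interval lies farthest from a ratio of 1. The members, the 19 lists and the tests were chosen with earlier results of these data known. Coordinates come from GENCODE M21 on mm10, matched by identifier for 121 of 121 named genes, and promoter windows from RefSeq on GRCm38.p6. Alternatives were other scalings, filters, depths, thinning, class limits, gates, doublets and cells.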

Additional observations from a re-analysis of the deposited data

How the results depend on the processing

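No paired analysis was possible because each genotype has 1 library, whose number pairs nothing. The library is itself a term of the class fit, and without this block 15 higher and 8 lower genes were called. The 65 higher and 72 lower calls became 32 and 23 among cells with 0 UMIs of the 5 innate lymphoid genes, 14 and 4 with DESeq2, 38 and 27 in a second random draw, and 24 and 12 with each cell counted at most once per gene. They became 31 and 36 in barcodes of 2500 to 4000 UMIs, 19 and 22 in those of 4000 or more, and 10 and 5 without barcodes holding a marker UMI of other cell types. Higher calls were 35 without barcodes with 3 or more G2 and M phase UMIs, lower calls 18 with DESeq2's size factors and 46 without doublets. The cause was not tested, though several of these fits hold fewer cells. Of the 49 named genes called, none reversed in any class fit, and the count that stayed called ran from 13 (without other markers) to 47 (at least 6 Ly49 UMIs, or without erythroid-rich and neutrophil-rich barcodes). With either library left out, values carry no test. Of these genes, 1 of 47 moved without the 3xTg-AD library and 8 of 46 moved without the wildtype library. None changed direction. For the 12 higher and 12 lower genes this was fixed by their choice, which required the same direction in both libraries. Of 361 alternative list medians, 139 moved by more than the spread between libraries.

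Genes at least 2-fold higher in 3xTg-AD were 4 in barcodes of 2500 to 4000 UMIs, 79 at a minimum of 20 UMIs and 1 at 100, against 8. Genes at least 2-fold lower were 22 unthinned, 9 at 2500 to 4000 UMIs, 6 without other markers, 105 at 20 UMIs and 4 at 100, against 14. The log2 ratio of AY036118 turned to -0.77 with 0 innate lymphoid UMIs, -0.38 at 2500 to 4000 UMIs and -0.34 without other markers. The share without Ly49 UMIs was 11.4% and 6.97% in a second draw, and 6.33% in wildtype without other markers. The 46 3xTg-AD cells and their 115000 UMIs limit all levels of lowly counted genes.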
